A study of Mus musculus with 96 samples.

Results

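MicroRNA stem-loops that entered the miRBase catalogue late were examined in mouse cerebellum. A stem-loop was called late when the number in its miRBase ID was 0019000 or higher, and the members were selected on their counts, with 10 or more required in 8 or more libraries at 6 months and again at 10 months. This gave 68 late stem-loops among the 1187 IDs of the count table, and 366 earlier stem-loops passed the same detection limit. Because the members were chosen by these counts, their detection and abundance are given as description and were not tested.

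Small RNA was sequenced from whole cerebellum of C57BL/6 mice of 6 and 10 months of age. The knock-in mice carried 1 wild type Htt allele and 1 Htt allele into which human HTT exon 1 had been placed. The lines were named after the CAG repeat length of that exon (Q140, Q92, Q50 and Q20). The study counts Q20 mice as controls because their repeat is close to the average human length. Wild type (WT) mice were littermates from the Q20 line and from the Q50 line, and the controls pooled the Q20 mice with all WT mice. Each of the 6 genotype groups held 8 libraries at each age, 4 female and 4 male, 96 in all. The labels on housing name WT mice beside Q20 and Q50 mice and only mice of their own line for Q92 and Q140, whereas the study's methods describe cages shared with WT mice, and WT libraries of the Q92 and Q140 lines were not analysed here, so that line, cage and repeat length cannot be told apart for Q140 and Q92. In whole tissue, fewer cells of a type and less RNA per cell cannot be told apart either.

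A microRNA stem-loop is a hairpin RNA that is trimmed in the nucleus and then in the cytoplasm to a short mature microRNA, which guides silencing of messenger RNAs with a matching site. miRBase numbers its stem-loops in the order in which they were registered, so that abundant and conserved microRNAs mostly have low numbers, while many later entries came from deep sequencing. Some late entries are mirtrons, short hairpins cut from introns by splicing. The files give miRBase IDs alone, and no table used here pairs these IDs with microRNA names, so names, mature sequences and positions are not given, and cell type markers could not be checked.

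Of the 492 late IDs in the table, 109 had no count in any library, 315 had counts but did not pass the detection limit, and 68 passed (13.8%). Of the 695 earlier IDs, 366 passed (52.7%). Among the 68 members, 40 had at least 10 counts in every one of the 96 libraries, and 9 further late IDs met the limit at 1 age only. The members just inside the limit were MI0026016 (11 libraries at 6 months and 9 at 10 months, median of 0.951 CPM, where CPM is the count scaled to a common library total) and MI0026023 (10 and 20 libraries, median of 1.07 CPM). Just outside were MI0023721 (9 and 7 libraries, 0.954 CPM) and MI0022051 (16 and 6 libraries, 0.152 CPM). At the number border, the first members were MI0019179 (median of 112 CPM) and MI0019198 (1.13 CPM), and the last earlier stem-loops were MI0018041 (2.01 CPM) and MI0018037 (5.52 CPM).

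Library totals ran from 5435778 to 7934044 counts. At 0 counts, a level of up to 0.552 CPM in the smallest library and 0.378 CPM in the largest remains possible (3 counts), for counting error alone. A library whose profile stands apart from the others has a strongly negative connectivity (Z.k), and 2 libraries of 6 months under the study's limit of -5 were left out of the tests, Q20 female replicate 2 (-6.7) and Q92 male replicate 4 (-6.32). A further 6 kept libraries had a Z.k under -3, and calls lost without them are given beside the result. Z.k was computed from all stem-loops tested, late ones included, so leaving out libraries by it is not independent of their levels. At 6 months 46 libraries were tested and at 10 months 48.

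The late stem-loops were scarce. Per length, in the FPKM values of the authors (fragments scaled to stem-loop length and library total), the median late stem-loop stood at 68.3 FPKM and the median earlier stem-loop at 870 FPKM. Only 8 of the 68 members ranked above the middle of the 434 stem-loops tested by median FPKM, and 1 lay among the first 100. In CPM, 48 members averaged under 10, 16 averaged 10 to 100 and 4 averaged over 100. Of the earlier stem-loops, 104 averaged under 10, 92 averaged 10 to 100 and 170 averaged over 100.

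MI0021961 alone made up most of the late signal. It took a median of 85% of all late counts (63.2% to 88.8% over libraries), had between 4804 and 9243 CPM with a median of 5805, and ranked 37th of all stem-loops tested by median FPKM. The next by FPKM were MI0019179 (median of 112 CPM, 81.1 to 141), MI0021908 (128 CPM, 94.6 to 258), MI0021583 (119 CPM, 28.9 to 548) and MI0021960 (68.1 CPM, 9.69 to 122). They were followed by MI0022895 (53 CPM, 30.4 to 69), MI0021587 (61 CPM, 14.1 to 295) and MI0026036 (68.7 CPM, 45.5 to 161). Over the kept libraries, the highest library of MI0019179 stood at 1.26 times the median library and that of MI0022895 at 1.3 times. The highest library of MI0021583 and of MI0021587 stood at more than 4 times the median library.

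All 68 members together took a median of 0.691% of the counts of a library (0.595% to 1.04%). Without MI0021961 they took a median of 0.103% (0.0866% to 0.327%). At 6 months the late share was 0.736% ± 0.0708 in Q140 libraries (SD, n = 8) and 0.708% ± 0.0628 in control libraries (SD, n = 23). At 10 months it was 0.753% ± 0.127 in Q140 libraries (SD, n = 8) and 0.696% ± 0.0945 in control libraries (SD, n = 24). These ranges overlapped, and the median share was between 0.661% and 0.719% in every L tag. The names of the libraries carry an L tag, which the labels leave undefined and which is 2, 3 or 4 for libraries of 6 months and 8 or 1 for those of 10 months. It was used in the tests in the place of the study's batch term, and L tag and age cannot be told apart.

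The members also differed from the earlier stem-loops in length and in how reads were assigned. The stem-loop length implied by the deposited values had a median of 69 bases in late stem-loops (56 to 147) and 84 bases in earlier ones (49 to 132). Late stem-loops were often at the ends of this range, since 52.9% were of 70 bases or shorter and 23.5% of 100 bases or longer, against 19.9% and 12% of the earlier stem-loops. The 34 members from MI0022743 to MI0022967 had lengths of 58 to 96 bases (median of 65), median levels of 1.15 to 53 CPM, and whole counts only. This range of lengths also held 290 earlier stem-loops. The 10 members from MI0021583 to MI0021961 were longer (72 to 123 bases), and 7 of them held values further than 0.001 from a whole count in at least 1 library, which occurs when reads that match several stem-loops are divided among them. The 8 members from MI0026016 to MI0026046 were the longest (89 to 147 bases). Values that were not whole occurred in 12 late stem-loops (17.6%) and in 140 earlier ones (38.3%), and levels of these stem-loops depend on how the reads were divided. MI0021961, MI0021908 and MI0019179 are among them.

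The variation between libraries of the same genotype, age and sex was larger in the late list. The median coefficient of variation of CPM was 24.7% in late stem-loops and 15.5% in earlier ones. Counting error alone would give a median of 17% in late stem-loops and 4.61% in earlier ones, so the low counts of the late list move with this difference. Within levels of abundance the lists were closer, and their order changed. Among stem-loops under 10 CPM the median was 27.8% in late (n = 48) and 33.3% in earlier ones (n = 104). From 10 to 100 CPM it was 16% in late (n = 16) and 15.2% in earlier ones (n = 92), and over 100 CPM it was 14.5% in late (n = 4) and 9.91% in earlier ones (n = 170).

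**Figure D1:**
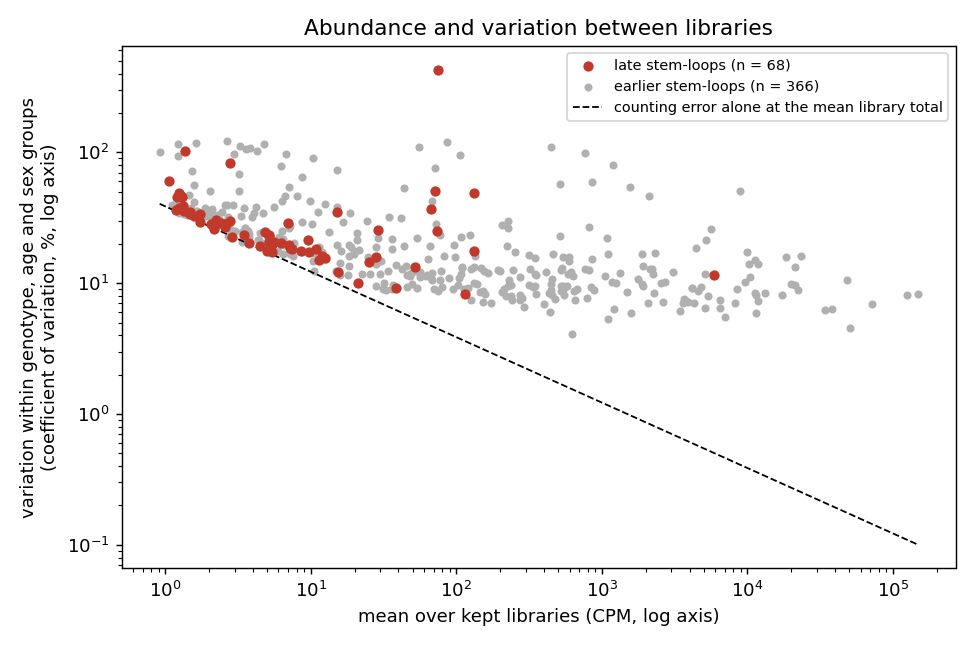
Coefficient of variation within genotype, age and sex groups (%, log axis) against mean level (CPM, log axis) for the 68 late stem-loops in red and the 366 earlier stem-loops in grey, over the 94 kept libraries, with the counting error at the mean library total as a dashed line. Most late stem-loops lie at the left along the dashed line, and MI0025035 lies highest of all with 428%.

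The highest library exceeded the median library more than 4-fold in 6 late stem-loops (8.82%), namely MI0025035, MI0026023, MI0030344, MI0021587, MI0021583 and MI0026016, and in 27 earlier ones (7.38%). Under 10 CPM these were 3 late (6.25%) and 17 earlier stem-loops (16.3%). From 10 to 100 CPM they were 2 late (12.5%) and 5 earlier ones (5.43%), and over 100 CPM 1 late (25%) and 5 earlier ones (2.94%). Over the 94 kept libraries, MI0025035 was far outside the rest at 1518 times its median, followed by MI0026023 at 10.2 times and MI0030344 at 6.55 times. MI0019198 and MI0022354, at 3.21 and 2.94 times, were next in this order. Both stayed under 4 CPM in every library.

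The level of MI0025035 ranged from under 1 estimated count to 2213 CPM. Its estimated count was under 1 in 24 libraries and its level was under 1 CPM in 42, while 49 libraries had at least 10 counts. In 9 libraries it exceeded 100 CPM, with 2213 CPM in Q140 male replicate 1, 1965 CPM in Q140 female replicate 4, 685 CPM in Q50 male replicate 4, 387 CPM in Q92 male replicate 2, 252 CPM in WT (Q50 line) male replicate 1 and 132 CPM in Q20 male replicate 3, all of 10 months. The other libraries over 100 CPM were of 6 months, with 475 CPM in WT (Q50 line) male replicate 2 and 2047 and 1995 CPM in the left-out Q20 female replicate 2 and Q92 male replicate 4. These libraries came from Q140, Q92, Q50, Q20 and WT mice.

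The earlier stem-loop MI0000562 was low in nearly the same libraries. It stood at 37.3 to 61.1 CPM in 8 libraries and at 745 to 1141 CPM in the other 88, and all 8 of the low libraries were among the 9 with over 100 CPM of MI0025035. The exception was Q50 male replicate 4 of 10 months, with 918 CPM of MI0000562 beside 685 CPM of MI0025035. The same 8 libraries stood apart in further earlier stem-loops. MI0001163 had 1122 to 2543 CPM in them and 2889 to 5379 CPM in the other 88. MI0000559 had 9235 to 10611 CPM in them and 3795 to 10004 CPM in the other 88. The counts of MI0025035 were not whole in 92 libraries and those of MI0000562 in 96, so both hold divided reads. The part of the read division in the levels of MI0025035 was not tested. These comparisons were chosen after the values were seen.

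**Figure D2:**
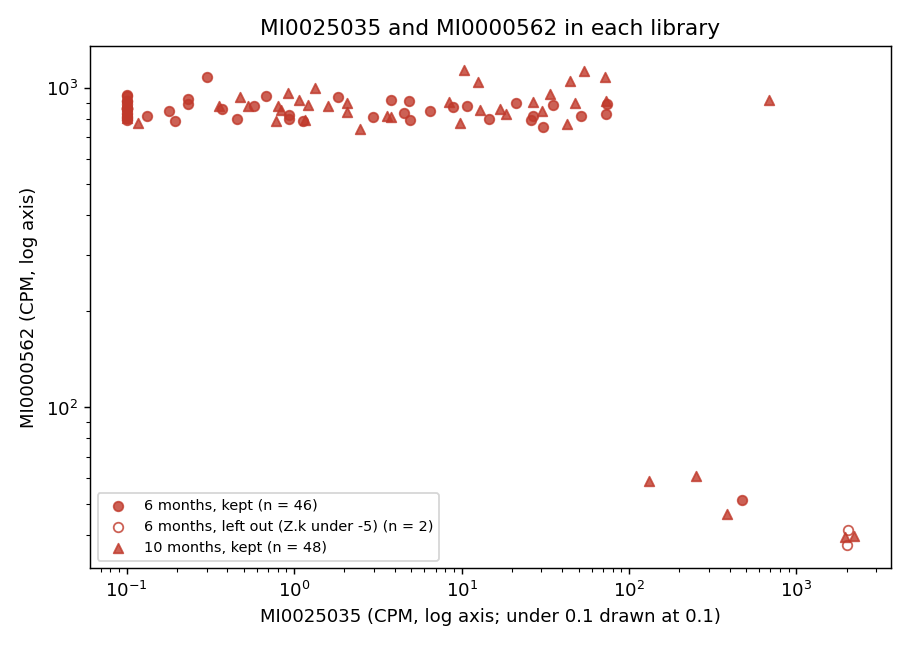
Level of the earlier stem-loop MI0000562 (CPM, log axis) against that of MI0025035 (CPM, log axis, values under 0.1 drawn at 0.1) in the 96 libraries, with circles for 6 months, triangles for 10 months and open symbols for the 2 libraries left out of the tests. The 8 libraries with 37.3 to 61.1 CPM of MI0000562 sit at the lower right, apart from the other 88.

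The comparison of Q140 with controls asked which stem-loops change when the repeat is long. Over both ages, none of the 68 late stem-loops passed an adjusted p of 0.05 in edgeR's quasi-likelihood test, while 22 of all 434 stem-loops did (5.07%). At an unadjusted p under 0.05 there were 8 late stem-loops (11.8%), against 21.7% of all tested, and DESeq2 called 3 late stem-loops and 7.6% of all tested. The late stem-loops had a median log2 fold change of 0.04 and a median absolute one of 0.08, and the earlier ones had -0.01 and 0.07. The median standard error was 0.1 in late and 0.06 in earlier stem-loops, so a change of a given size was harder to detect in the late list.

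**Figure D3:**
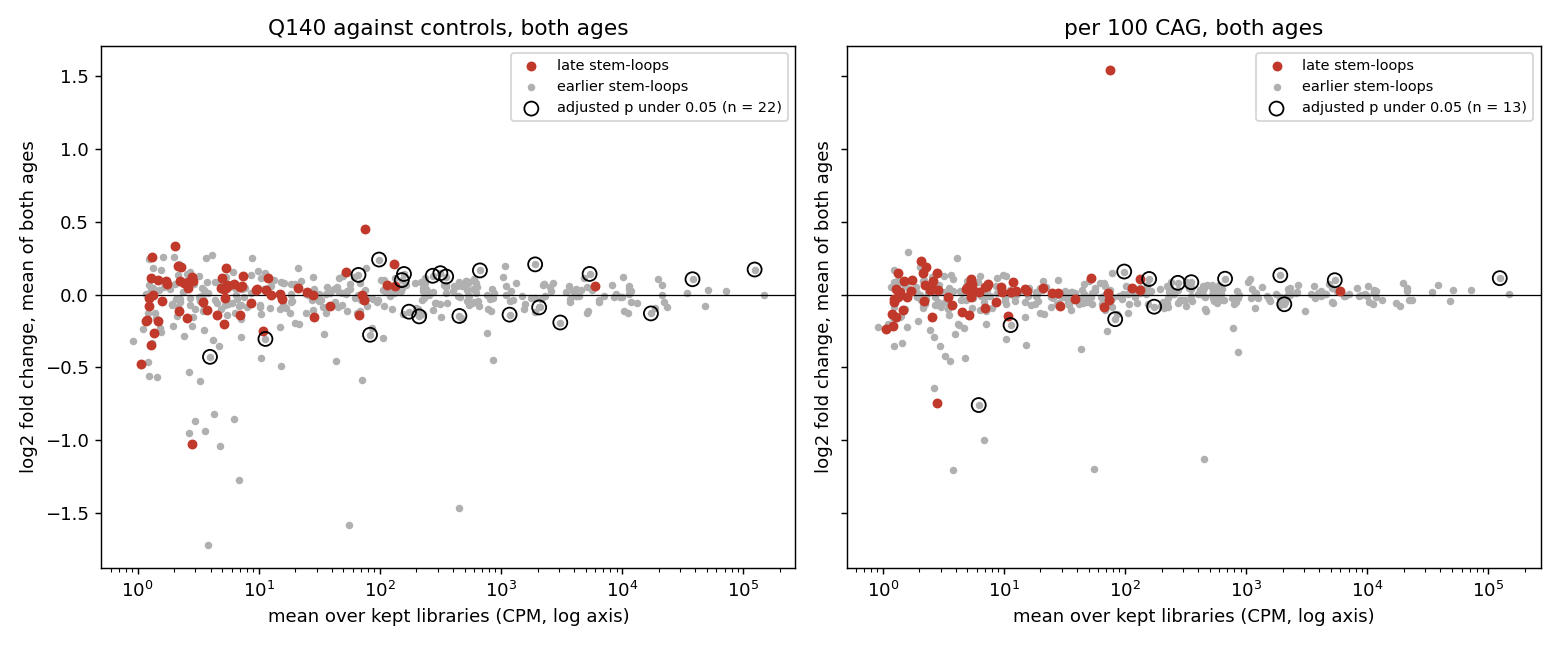
Mean log2 fold change of both ages against mean level (CPM, log axis) for Q140 against controls (left) and per 100 CAG (right), with late stem-loops in red, earlier ones in grey and black rings around those with an adjusted p under 0.05. The 22 and the 13 ringed stem-loops are all earlier ones, and the late stem-loops spread most where levels are low.

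The 2 late stem-loops with the lowest p for Q140 over both ages were MI0026046 and MI0022895, and neither passed. MI0026046 had a log2 fold change of -0.25 ± 0.08 (SE, adjusted p = 0.0524 in edgeR). MI0022895 had one of 0.15 ± 0.05 (SE, adjusted p = 0.0593 in edgeR). MI0022895 stood at 59.9 ± 4.21 CPM in Q140 (SD, n = 8) and 53.6 ± 6.7 CPM in controls (SD, n = 23) at 6 months, and at 51.6 ± 5.9 CPM in Q140 (SD, n = 8) and 48.1 ± 8.33 CPM in controls (SD, n = 24) at 10 months. Of the Q140 libraries, 8 of 8 at 6 months and 6 of 8 at 10 months exceeded the mean of the controls. Their ranges overlapped with those of the controls at both ages.

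At 6 months no late stem-loop passed for Q140 against 2.3% of all tested, with 7 late stem-loops at an unadjusted p under 0.05 (10.3%, against 19.8% of all tested) and 1 called by DESeq2, which called 5.53% of all tested. At 10 months 2 of the 68 passed (2.94%), against 2.3% of all tested. They were MI0026046, which fell, and MI0025035, which rose.

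MI0026046 fell in Q140 at 10 months. Its level ran from 5.8 to 10.7 CPM with a median of 8.38 in Q140 libraries (8.45 ± 1.64, SD, n = 8), and from 7.56 to 17.9 CPM with a median of 11 in control libraries (11.2 ± 2.25, SD, n = 24). All 8 Q140 libraries lay under the control mean, and the ranges overlapped. The log2 fold change was -0.41 ± 0.11 (SE, adjusted p = 0.0407 in edgeR). It was -0.17 ± 0.2 within L tag 1 (3 Q140 libraries) and -0.47 ± 0.14 within L tag 8 (5 Q140 libraries), with neither value passing alone. Among the controls, Q20 mice averaged 13.1 ± 2.33 CPM (SD, n = 8), WT mice of the Q20 line 10.9 ± 1.09 CPM and WT mice of the Q50 line 9.68 ± 1.76 CPM. Against WT mice alone the log2 fold change was -0.29 and did not pass (adjusted p = 0.28 in edgeR), and the adjusted p was 0.105 without the libraries of Z.k under -3. The call was lost in 18 of 48 fits that left out 1 library. At 6 months MI0026046 averaged 10.6 ± 1.87 CPM in Q140 and 11.2 ± 2.13 CPM in controls.

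MI0025035 had a log2 fold change of 4.84 ± 1.08 in Q140 at 10 months (SE, adjusted p = 0.0118 in edgeR), which rested on 2 libraries. The 8 Q140 libraries held 2213, 1965, 9.85, 3.81, 2.08, 0.925, 0.78 and 0.0168 CPM, with a median of 2.95, and the 24 control libraries held up to 252 CPM with a median of 2.04. Apart from the 2 highest, the Q140 libraries lay within the range of the controls. Without Q140 female replicate 4 the log2 fold change was 3.08 and without Q140 male replicate 1 it was 3.12, and neither passed (adjusted p = 0.507 in edgeR for each). Without the 5 libraries of 10 months with a Z.k under -3, which include both, it turned to -2.49 (adjusted p = 0.645 in edgeR). MI0025035 is among the stem-loops from which Z.k was computed, so this choice of libraries depends in part on the level of MI0025035. At 6 months its level was at most 4.53 CPM in Q140 libraries (median of 0.337, n = 8) and reached 475 CPM in control libraries (median of 0.234, n = 23), with a log2 fold change of -3.93 ± 1.69 that did not pass (adjusted p = 0.178 in edgeR).

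**Figure D4:**
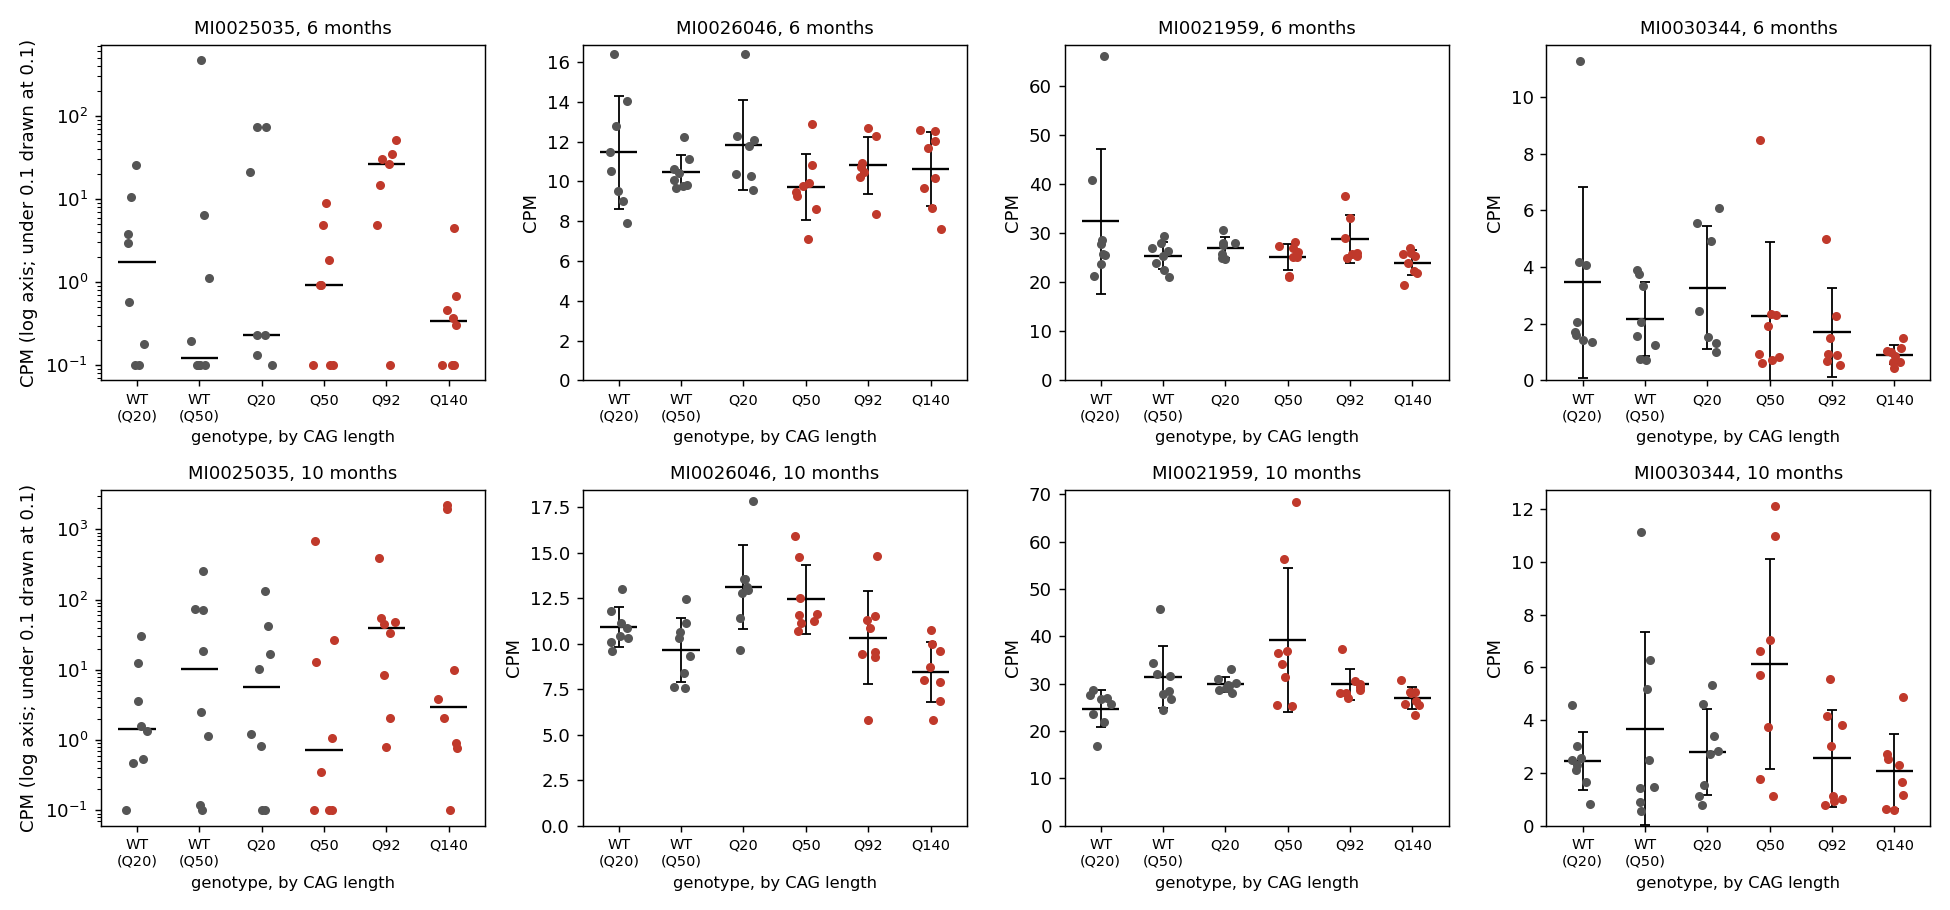
Level (CPM) in every kept library of the late stem-loops called in a genotype or CAG comparison, by genotype in order of CAG length, at 6 months (top) and 10 months (bottom), with controls in grey and Q50, Q92 and Q140 in red. Lines mark the mean with its SD, or for MI0025035 the median on a log axis with values under 0.1 drawn at 0.1, and the 2 Q140 libraries of 10 months at 2213 and 1965 CPM stand far above the rest of their group.

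For Q92, no late stem-loop passed at 6 months, at 10 months or over both ages, and none of the 434 tested did (0%). At an unadjusted p under 0.05 there were 3 late stem-loops at 6 months (4.41%, against 5.07% of all tested), 7 at 10 months (10.3%, against 10.8%) and 4 over both ages (5.88%, against 5.76%), and DESeq2 called none (0% of all tested). MI0023719 and MI0022795 had the lowest p over both ages, with log2 fold changes of 0.15 ± 0.05 and 0.24 ± 0.09 (SE, adjusted p = 0.384 and 0.39 in edgeR). MI0023719 averaged 17.3 ± 1.4 CPM in Q92 (SD, n = 8) and 15.2 ± 2.12 CPM in controls (SD, n = 24) at 10 months, with 8 of 8 Q92 libraries above the control mean. MI0022795 averaged 5.62 ± 0.606 CPM in Q92 (SD, n = 7) and 4.66 ± 1 CPM in controls (SD, n = 23) at 6 months, with 7 of 7 Q92 libraries above the control mean. At the other age, 5 of 7 Q92 libraries for MI0023719 (6 months) and 6 of 8 for MI0022795 (10 months) were above it. The ranges of both overlapped with those of the controls.

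For Q50, no late stem-loop passed at 6 months or over both ages, nor did any of all tested (0%). There were 2 late stem-loops at an unadjusted p under 0.05 at 6 months (2.94%, against 3% of all tested) and 1 over both ages (1.47%, against 6.68%), and DESeq2 called none (0% of all tested). MI0021960 and MI0022803 had the lowest p over both ages, with log2 fold changes of -0.4 ± 0.17 and -0.23 ± 0.12 (SE, adjusted p = 0.513 and 0.736 in edgeR). MI0021960 averaged 54.1 ± 17.4 CPM in Q50 and 71.5 ± 23.3 CPM in controls at 6 months, and 58.3 ± 26.1 CPM in Q50 and 72 ± 28.5 CPM in controls at 10 months. At 10 months 1 late stem-loop passed (1.47%), against 3.69% of all tested.

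That stem-loop was MI0021959, which rose in Q50 at 10 months. Its level ran from 25.3 to 68.3 CPM with a median of 35.3 in Q50 libraries (39.3 ± 15.2, SD, n = 8), and from 16.8 to 45.8 CPM with a median of 28.5 in control libraries (28.7 ± 5.21, SD, n = 24). It was above the control mean in 6 of 8 Q50 libraries, and only female replicate 3 (68.3 CPM) and male replicate 3 (56.2 CPM) lay above every control. Among the controls, WT mice of the Q50 line ran from 24.5 to 45.8 CPM. WT mice of the Q20 line ran from 16.8 to 28.6 CPM and Q20 mice from 28 to 33.1 CPM. No fit set Q50 against WT mice of its own line alone. The log2 fold change was 0.38 ± 0.11 (SE, adjusted p = 0.0336 in edgeR), and it was 0.36 ± 0.16 within L tag 1 and 0.37 ± 0.15 within L tag 8, with neither passing alone. Female replicate 3 had a Z.k of -4.3, and without it the log2 fold change was 0.23 (adjusted p = 0.415 in edgeR), as it was without all libraries of Z.k under -3 (adjusted p = 0.66 in edgeR). The call was also lost without Q50 male replicate 3 (0.28, adjusted p = 0.277 in edgeR), without Q50 male replicate 4 (adjusted p = 0.0584) and without female replicate 2 (adjusted p = 0.0525) or male replicate 3 (adjusted p = 0.0511) of the WT mice of the Q20 line. At 6 months MI0021959 averaged 25.2 ± 2.7 CPM in Q50 and 28.4 ± 9.1 CPM in controls, with a log2 fold change of -0.12 ± 0.12. Its values were not whole in 43 libraries.

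A further fit took the CAG length of each line as a numeric term (7 in WT mice), and its changes are given per 100 CAG. Over both ages no late stem-loop passed, against 3% of all tested, with 9 late stem-loops at an unadjusted p under 0.05 (13.2%, against 18% of all tested) and 1 called by DESeq2, which called 5.07% of all tested. The 2 with the lowest p were MI0030344 (-0.74 ± 0.24, SE, adjusted p = 0.0738 in edgeR) and MI0022895 (0.11 ± 0.04, SE, adjusted p = 0.0799 in edgeR). At 10 months 1 late stem-loop passed (1.47%), against 0.461% of all tested, and 4 had an unadjusted p under 0.05 (5.88%, against 10.1%). The stem-loop that passed was MI0025035, with 3.72 ± 0.76 (SE, adjusted p = 0.0051 in edgeR), which did not pass without Q140 female replicate 4 (2.47, adjusted p = 0.389) or without Q140 male replicate 1 (2.97, adjusted p = 0.152), and stood at 0.45 without the libraries under a Z.k of -3 (adjusted p = 0.995). At 6 months 1 late stem-loop passed (1.47%), against 2.76% of all tested.

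At 6 months MI0030344 fell with CAG length. Its median level was 1.89 CPM in WT mice of the Q20 line, 1.81 in WT mice of the Q50 line, 2.46 in Q20, 1.43 in Q50, 0.927 in Q92 and 0.93 in Q140. In Q140 it ran from 0.453 to 1.5 CPM (n = 8), and all 8 libraries lay under the control mean of 2.95 CPM, while controls ran from 0.718 to 11.3 CPM (n = 23). The median of each control group also lay under that mean, so many control libraries did so too. The change per 100 CAG was -1.16 ± 0.34 on the log2 scale (SE, adjusted p = 0.0473 in edgeR). It was -1.43 ± 0.37 within L tag 2, -1.11 ± 0.45 within L tag 3 and -0.8 ± 0.82 within L tag 4, with none passing alone. The call was lost in 30 of 46 fits that left out 1 library, against WT mice alone (-1.02, adjusted p = 0.141 in edgeR) and without the library of Z.k under -3 (-0.97, adjusted p = 0.119 in edgeR). Each Q140 value at 6 months stood for few counts, as the detection limit of 10 counts corresponds to more than 1 CPM in every library.

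At 10 months the same stem-loop had a change of -0.33 ± 0.34 per 100 CAG (SE, adjusted p = 0.921 in edgeR). Q50 libraries were highest there, with 1.12 to 12.1 CPM and a mean of 6.14 ± 3.97 (SD, n = 8), against 2.97 ± 2.35 CPM in controls (SD, n = 24). The log2 fold change of 0.98 ± 0.36 in Q50 did not pass (adjusted p = 0.138 in edgeR). The highest library was again Q50 female replicate 3.

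Differences of these effects between 10 and 6 months were tested as interactions with age, an analysis added after the values were seen. None of the 434 stem-loops passed for Q140, Q92, Q50 or CAG length (0%), and at an unadjusted p under 0.05 there were 4 late stem-loops for Q140 (5.88%, against 7.6% of all tested), 2 for Q92 (2.94%, against 8.99%), 6 for Q50 (8.82%, against 15.7%) and 2 for CAG length (2.94%, against 7.14%). The lowest adjusted p among late stem-loops was 0.23 for Q140, 0.18 for Q92, 0.133 for Q50 and 0.424 for CAG length in edgeR. A change seen at 1 age is therefore not shown to differ from that at the other age.

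L tags were compared for late stem-loops that differ between sets of libraries. At 6 months 5 of 68 late stem-loops passed (7.35%), against 12.2% of all tested. MI0022868 had a median of 8.62 CPM in tag 2 (n = 6), 6.83 CPM in tag 3 (n = 24) and 9.18 CPM in tag 4 (n = 16), with overlapping ranges (adjusted p = 0.00794 in edgeR). It remained called in all 46 fits that left out 1 library, and was not called among the control libraries alone (adjusted p = 0.232 in edgeR). Genotypes were spread unevenly over these tags, with Q140 in 3 of the 6 libraries of tag 2 and Q50 in 6 of the 16 of tag 4. MI0021960 was lowest in tag 2, with a median of 39.6 CPM against 75.3 CPM in tag 3 and 66.5 CPM in tag 4, and was called narrowly (adjusted p = 0.0499 in edgeR). MI0026016 was lowest in tag 3 (medians of 1.15, 0.573 and 1.08 CPM in tags 2, 3 and 4, adjusted p = 0.0129 in edgeR), and MI0023719 in tag 4 (medians of 16.3, 15.5 and 14.1 CPM, adjusted p = 0.0416 in edgeR). Leaving out 1 library ended the call of MI0021960 in 36 of 46 fits and that of MI0023719 in 19. Without the library of Z.k under -3 neither passed (adjusted p = 0.053 for MI0021960 and 0.0526 for MI0023719 in edgeR).

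MI0025035 also differed among the tags of 6 months, with medians of 0.38, 4.87 and 0.0222 CPM in tags 2, 3 and 4 (adjusted p = 0.0115 in edgeR). The medians of tags 2 and 4 lay under the 0.552 CPM that 3 counts give in the smallest library. At this age 21 libraries held 10 or more counts. The call was lost without WT (Q50 line) male replicate 2, the library with 475 CPM (adjusted p = 0.0909 in edgeR). It was lost too when the 2 libraries under the Z.k limit were kept (adjusted p = 0.299 in edgeR). That of MI0026016 was lost without WT (Q50 line) female replicate 4 (adjusted p = 0.0607 in edgeR).

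At 10 months 3 of 68 late stem-loops passed between the tags (4.41%), against 4.84% of all tested, and all 3 were lower in tag 8 than in tag 1. At an unadjusted p under 0.05 there were 6 (8.82%, against 10.4%). MI0021587 had 14.3 to 76.7 CPM in tag 8 with a median of 54.4, and 16.5 to 295 CPM in tag 1 with a median of 98.7 (log2 fold change of -0.75 ± 0.2, SE, adjusted p = 0.0122 in edgeR). MI0021583 had 48 to 165 CPM in tag 8 with a median of 121, and 29.7 to 548 CPM in tag 1 with a median of 191 (-0.6 ± 0.18, SE, adjusted p = 0.0459 in edgeR). MI0026023 had medians of 1.03 CPM in tag 8 and 1.94 CPM in tag 1 (-0.64 ± 0.16, SE, adjusted p = 0.00956 in edgeR). The ranges of the tags overlapped in all 3. Leaving out 1 library ended none of these calls for MI0021587 and MI0026023 and ended that of MI0021583 in 33 of 48 fits. Without the 5 libraries of 10 months under a Z.k of -3 all 3 calls were lost, with adjusted p of 0.0824, 0.168 and 0.0826 in edgeR. MI0022918, the fourth by p, had -0.18 ± 0.07 and did not pass (adjusted p = 0.159 in edgeR).

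**Figure D5:**
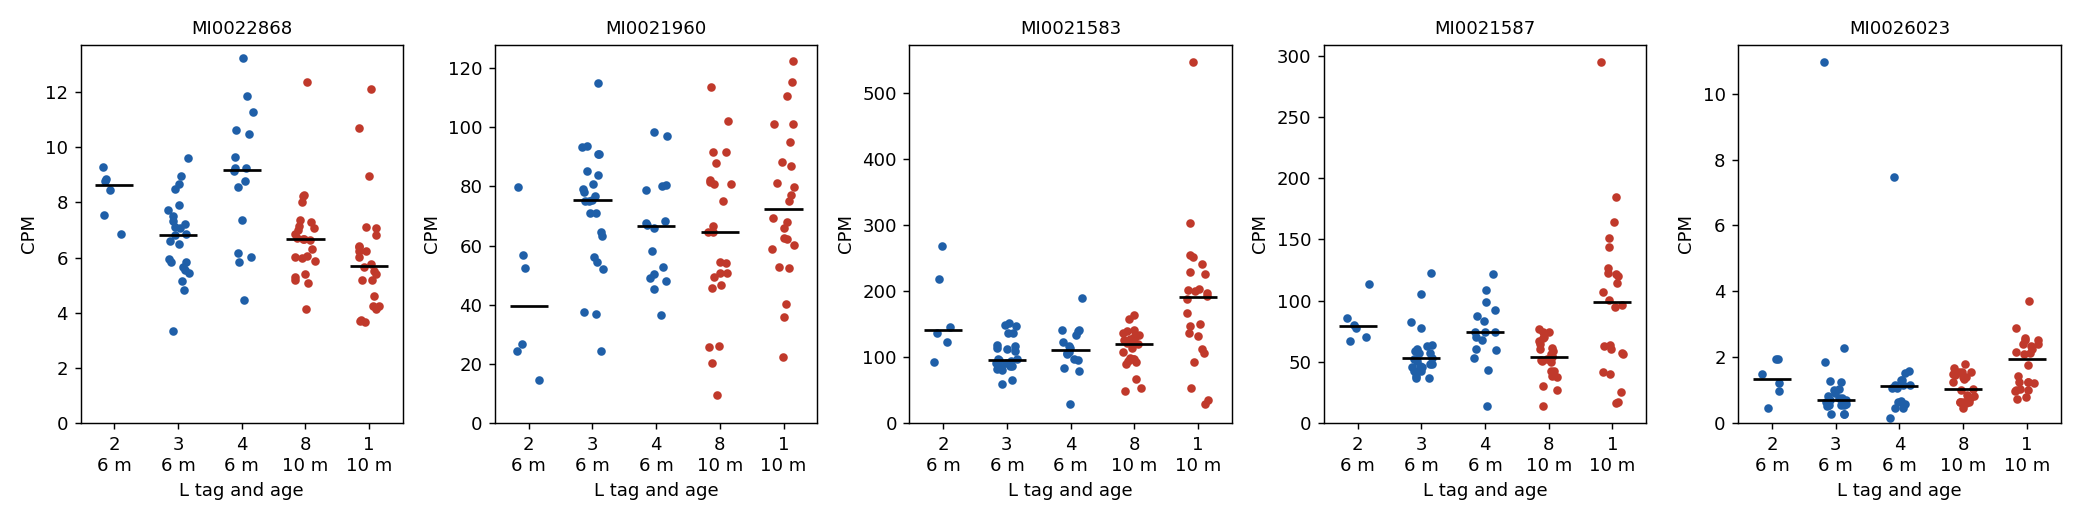
Level (CPM) of 5 late stem-loops in the kept libraries of each L tag, with 6 months in blue (tags 2, 3 and 4) and 10 months in red (tags 8 and 1), where each point is a library and lines mark medians. MI0021583 and MI0021587 spread furthest in tag 1, up to 548 and 295 CPM, and stay at or under 165 and 76.7 CPM in tag 8.

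MI0021583 and MI0021587 followed each other over the libraries. Over the 94 kept libraries their log2 CPM values had r = 0.87 and rho = 0.76, each with p = 1e-05 in a permutation test, the smallest that 100000 permutations can give (adjusted p = 0.00087 and 0.00072 over the 433 stem-loops compared with MI0021583). Without the 2 libraries farthest from the median r was 0.84. Within tags it was 0.84, 0.55 and 0.86 in tags 2, 3 and 4, 0.93 in tag 8 and 0.94 in tag 1. Both were highest in Q20 male replicate 4 of 10 months, at 548 and 295 CPM.

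MI0030344 in turn followed earlier stem-loops, of which MI0004310 was closest by r, with r = 0.89 and rho = 0.86 (each p = 1e-05 in the same permutation test, adjusted p = 0.0002 and 0.00031 over 433 stem-loops). By rho MI0004130 was closest, with rho = 0.87 and r = 0.87. For MI0004310, without the 2 farthest libraries r was 0.88, and within tags it lay between 0.88 and 0.96. The 2 stem-loops examined in this way were chosen after their values were seen, and all points share the library total and the tag.

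Between the sexes, 1 late stem-loop passed at 6 months (1.47%), against 1.15% of all tested, and 2 passed at 10 months (2.94%), against 6.91% of all tested. These 3 were chosen for naming after their values were seen, and all were lower in females. MI0026044 averaged 25.2 ± 3.08 CPM in females and 28.8 ± 3.31 CPM in males at 6 months (SD, n = 23 each), a log2 fold change of -0.21 ± 0.06 (SE, adjusted p = 0.0462 in edgeR). At 10 months it averaged 21.3 ± 4.22 CPM in females and 24.9 ± 4.62 CPM in males (SD, n = 24 each, adjusted p = 0.083 in edgeR). MI0022901 averaged 7.52 ± 1.82 CPM in females and 9.26 ± 1.45 CPM in males at 10 months (-0.29 ± 0.09, SE, adjusted p = 0.041 in edgeR), and MI0022354 averaged 0.833 ± 0.571 CPM in females and 1.49 ± 0.817 CPM in males (-0.77 ± 0.25, SE, adjusted p = 0.0471 in edgeR). Leaving out 1 library ended the call of MI0026044 in 14 of 46 fits, that of MI0022901 in 22 of 48 and that of MI0022354 in 33 of 48. Without the libraries of Z.k under -3 MI0022354 did not pass (-0.68, adjusted p = 0.143 in edgeR), and among the control libraries alone none of the 3 did (adjusted p = 0.387 for MI0026044, 0.247 for MI0022901 and 0.225 for MI0022354 in edgeR, with unadjusted p of 0.03, 0.017 and 0.01). At an unadjusted p under 0.05, 14 late stem-loops differed between the sexes at 10 months (20.6%, against 20.7% of all tested), 2 higher and 12 lower in females. Of the earlier stem-loops, 53 were higher and 23 lower in females at this limit, and of the 30 stem-loops called in all, 19 were higher and 11 lower. The difference between the lists was not tested.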

How the data were processed

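The members, lists and alternatives were chosen with earlier results of these data known. Per the study's methods, STAR aligned the clipped 36-mer reads to the mouse genome under its defaults, and HTSeq counted them. The submitters' processing notes list CASAVA 1.8.2. The authors deposited estimated counts per stem-loop, not normalized and not always whole, and FPKM, which are the same counts scaled by library total and stem-loop length. Which program divided reads among stem-loops is unstated. All columns belonged to a labelled sample, and groups and L tags came from the labels.

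Estimated counts were rounded and tested with edgeR 4.0.16 (TMM, quasi-likelihood) in R 4.3.3, per age, with genotype, sex and L tag as terms. Adjusted p are Benjamini-Hochberg values over all 434 stem-loops at 0.05. Ages were combined by summed z, with log2 fold changes averaged. Standard errors in edgeR were derived from the log2 fold change and the F statistic of its test. For both ages they were combined from the single-age fits, while p came from the summed z. Per-library values are plain CPM. Correlations used log2(CPM + 0.5). Alternatives used DESeq2 1.42.0, also on counts with outlying values replaced as in the study, and limma 3.58.1 on log2(FPKM + 1) and log2(FPKM + 0.1), with other scalings, filters, terms, controls and libraries. The code was tested on simulated data.

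Stem-loops were named if called for genotype or CAG length, if among the 8 highest by median FPKM or by highest over median library, if among the 4 of lowest L tag p at an age, or, where none passed over both ages, if among the 2 of lowest p. Libraries under a Z.k of -5 were left out, as in the study. Libraries stand for separate animals by the study's description. Reads carried no molecular identifiers, so floors cover counting error only.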

Additional observations from a re-analysis of the deposited data

Results flagged for a closer look

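In groups of 1 genotype and age, a library was marked when its gap to the nearest other, divided by the range of the group, exceeded 0.526 with 8 libraries or 0.568 with 7. Of 60 groups examined (5 measures in 12 groups), 18 had such a library. Chance gives about 1 in 20 for normally distributed values, a rate that does not hold for levels as skewed as those of MI0025035. The share of counts in late stem-loops stood apart in Q140 male replicate 3 at 6 months (0.899%, next 0.753%), and at 10 months in Q20 female replicate 4 (0.891%, next 0.73%) and in female replicate 3 of the WT mice of the Q20 line (1.04%, next 0.718%).

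MI0025035 accounted for 8 of the 18. At 6 months it stood at 4.53 CPM in Q140 female replicate 1, at 26 CPM in male replicate 3 of the WT mice of the Q20 line and at 475 CPM in male replicate 2 of the WT mice of the Q50 line. At 10 months it stood at 387 CPM in Q92 male replicate 2, at 685 CPM in Q50 male replicate 4, at 132 CPM in Q20 male replicate 3, at 30.3 CPM in male replicate 4 of the WT mice of the Q20 line and at 252 CPM in male replicate 1 of the WT mice of the Q50 line.

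MI0030344 stood apart at 6 months in Q92 female replicate 2 (4.99 CPM), Q50 male replicate 3 (8.49 CPM) and female replicate 3 of the WT mice of the Q20 line (11.3 CPM, Z.k of -4.71). In that last library MI0021959 stood apart as well (66.1 CPM). At 10 months MI0021959 did so in Q92 female replicate 3 (37.3 CPM) and in female replicate 1 of the WT mice of the Q50 line (45.8 CPM). MI0026046 did so in Q20 female replicate 3 at 6 months (16.4 CPM).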

How the results depend on the processing

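Counts are given as late stem-loops of all stem-loops called under a setting, with causes not tested. The stem-loops tested were 68 late of 434 in all, but 23 late of 290 with a mean count of at least 50 and 68 late of 1001 without a filter. Settings that moved a result are listed in the main. Apart from fits that left out 1 library, 74 alternatives moved a result and 171 left it the same or nearly so. For Q92 at each age and over both, and for Q50 at 6 months and over both ages, 0 late stem-loops were called throughout. For Q140 over both ages (0 of 22 as reported) it was 3 of 33 with DESeq2, 3 of 42 with DESeq2 on replaced values, 2 of 24 with all libraries kept, 2 of 32 without the L tag, 1 of 30 and 1 of 28 with limma at pseudocounts of 0.1 and 1, 1 of 26 with a mean count of at least 50, 1 of 27 with only the groups compared and 1 of 14 without libraries of Z.k under -3. For Q140 at 6 months (0 of 10) it was 1 of 24 and 1 of 27 with the 2 forms of DESeq2, 1 of 27 with only the groups compared and 2 of 23 without the L tag. For CAG length over both ages (0 of 13) it was 1 of 22 and 1 of 23 with the 2 forms of DESeq2, 1 of 13 with all libraries kept and 1 of 19 without the L tag. For Q140 at 10 months (2 of 10) it was 1 of 4 with WT controls alone, 1 of 1 without a filter, 1 of 9 with only the groups compared, 0 of 7 with limma at either pseudocount, 0 of 0 within L tag 1 and within L tag 8, and 0 of 1 without libraries of Z.k under -3. There MI0025035 had a log2 fold change of -2.49, against 4.84 as reported. For Q50 at 10 months (1 of 16) it was 0 of 0 with limma and without libraries of Z.k under -3, 0 of 13 with DESeq2 on replaced values, 0 of 10 without a filter, 0 of 3 with only the groups compared, and 0 of 0 and 0 of 2 within L tags 1 and 8. For CAG length at 10 months (1 of 2) it was 0 of 3 with limma, 0 of 0 and 0 of 1 within L tags 1 and 8, and 0 of 1 without libraries of Z.k under -3. For CAG length at 6 months (1 of 12) it was 0 of 10 with RLE size factors, 0 of 1 with WT controls alone, 0 of 8 with robust estimates, 0 of 7 with a mean count of at least 50 and without a filter, 0 of 0, 0 of 2 and 0 of 0 within L tags 2, 3 and 4, and 0 of 5 without libraries of Z.k under -3. For the L tags of 6 months (5 of 53) it was 3 of 53 and 3 of 60 with the 2 forms of DESeq2, 3 of 35 without a filter, 3 of 24 with control libraries alone, 3 of 51 without libraries of Z.k under -3, and 2 of 43 with a mean count of at least 50. For those of 10 months (3 of 21) it was 1 of 18 with limma, 0 of 6 with control libraries alone and 0 of 16 without libraries of Z.k under -3. Between the sexes at 6 months (1 of 5) it was 2 of 12 with DESeq2, 2 of 11 with WT controls alone, 2 of 10 with all libraries kept, 3 of 11 without libraries of Z.k under -3, 0 of 0 with control libraries alone, and 0 of 4 without a filter and without the L tag. At 10 months (2 of 30) it was 1 of 22 with limma at a pseudocount of 0.1, 1 of 19 with a mean count of at least 50, 1 of 27 without the L tag, 1 of 18 without libraries of Z.k under -3, 0 of 0 with control libraries alone and 0 of 12 without a filter. Same-numbered replicates had a mean r of -0.018 at 6 months and 0.079 at 10 months, against 0.006 and -0.026 for other pairs. With replicate number as a block it was 0 of 4 for Q140 at 10 months, 0 of 1 for Q140 at 6 months and 0 of 3 for CAG length at 6 months. Leaving out each library in turn gave 0 to 2 late stem-loops for Q140 at 10 months, 0 to 1 at 6 months and 0 to 3 over both, 0 to 2 for Q50 at 10 months, 0 to 1 for CAG length at each age and over both, 2 to 6 and 2 to 3 for the L tags of 6 and 10 months, and 0 to 3 and 0 to 4 for the sexes. The numbers called over all stem-loops in these fits are not given, so these ranges cannot be set against them. The median coefficient of variation stayed at 24 to 24.9%. The late share was 0.596% of summed FPKM in place of counts and 0.103% without MI0021961. Alternatives with libraries of Z.k under -3 left out were chosen after seeing the data, and Z.k itself depends on the levels of the stem-loops tested. Counting error alone would give a median coefficient of variation of 17% in late stem-loops, beside the 24.7% measured.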
